A study of Mus musculus with 9 samples.

Results

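The Entpd4, Tmem254 and Duxbl genes, Gm16867 and Gm15446 were followed across the retinal libraries of a study of interleukin-19 (IL-19) loss. All 10 are mouse genes that exist as near-identical copies, or closely resemble or overlap a neighbour. These 10 of the 25108 entries of the expression table were Entpd4, Entpd4b and Gm16867; Tmem254a, Tmem254b and Tmem254c; Duxbl1, Duxbl2 and Duxbl3; and Gm15446. They were chosen by name because their values differed between the knockout and wild-type retinas with retinopathy, so that contrast is described here without a test. The only comparison among them that did not take part in the choice is retinopathy against room air in wild type, and its retinopathy libraries belonged to the choosing contrast too.

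Retinas came from C57BL/6 mice at postnatal day 17, in 3 groups of 3 libraries. The OIR KO group is IL-19 knockout with oxygen-induced retinopathy (OIR), the OIR WT group is wild type with the same retinopathy, and the RA WT group is wild type kept in room air. In this model, pups breathe high oxygen, which prunes the growing retinal vessels, and the retina turns hypoxic and forms new vessels once they are back in room air. Knockout mice without retinopathy are not analysed here, and the genotypes are compared within retinopathy. The labels state neither how the knockout allele was made nor that each library is its own animal. P-values therefore reflect the spread among libraries, part or all of which may be technical.

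A gene family grows when a stretch of chromosome is duplicated, and recent duplicates carry almost the same sequence. A short read from such a copy fits several places in the genome equally well, and the program that counts reads must share it out, drop it or give it to 1 copy. The level listed for 1 copy is therefore uncertain, while the sum over copies of like length depends little on how reads were shared among them, unless such reads were dropped. Entpd4 and Entpd4b encode a nucleotidase of the Golgi and lysosomal membranes that splits nucleotides such as UDP. Duxbl genes encode proteins with a pair of homeodomains, related to the Dux factor that switches on genes of the cleavage-stage embryo. Tmem254 genes encode a small membrane protein of little-known function.

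The 10 genes lie in 3 places. On chromosome 14 of build GRCm38, Entpd4 (ENSMUSG00000095463, 69337174 to 69367270, plus strand) and Entpd4b (ENSMUSG00000022066, 69555424 to 69585520, plus strand) flank Gm16867 (ENSMUSG00000093954, 69363504 to 69503362, minus strand). The 3′ end of Gm16867 overlaps the 3′ end of Entpd4 on the opposite strand. In a second stretch of chromosome 14, the minus-strand genes Tmem254a (ENSMUSG00000072676, 25923300 to 25927672), Tmem254c (ENSMUSG00000072680, 26063919 to 26067355) and Tmem254b (ENSMUSG00000021867, 26203369 to 26207041) alternate with the plus-strand genes Duxbl1 (ENSMUSG00000048502, 25978577 to 25990088), Duxbl2 (ENSMUSG00000072675, 26118349 to 26129763) and Duxbl3 (ENSMUSG00000072672, 26257962 to 26269436). This stretch spans 346 kb, and that of the Entpd4 genes 248 kb. Gm15446 (ENSMUSG00000090015, 109923400 to 109943936, plus strand) lies on chromosome 5, next to the zinc finger gene Zfp932. All 10 are annotated as protein-coding in GENCODE M21.

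The coding sequences show why single copies cannot be told apart by reads from the coding part. Coding sequences annotated for Entpd4 and Entpd4b were the same over 1839 bases, those of the 3 Tmem254 genes over 387 bases, and those of the 3 Duxbl genes over 1050 bases, with 0 differing bases in each case. The first 60 coding bases of each family, with the start codon in capitals, stand for every copy named.
Entpd4 and Entpd4b: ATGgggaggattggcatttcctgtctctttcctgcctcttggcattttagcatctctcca
Tmem254a, Tmem254b and Tmem254c: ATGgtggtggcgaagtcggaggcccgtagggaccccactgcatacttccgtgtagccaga
Duxbl1, Duxbl2 and Duxbl3: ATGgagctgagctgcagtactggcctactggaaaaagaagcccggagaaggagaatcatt

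Gm15446 is the exception. Its coding sequence differed from that of Zfp932 at 22 of 1574 aligned bases, an identity of 98.6%. The 90-base stretches below, coding bases 1224 to 1313 of Gm15446 and 1143 to 1232 of Zfp932, hold 4 of these differences, shown in capitals. Counted from the first coding base of Gm15446, with its base given first, they are A1227G, G1250A, A1271G and A1313C.
Gm15446: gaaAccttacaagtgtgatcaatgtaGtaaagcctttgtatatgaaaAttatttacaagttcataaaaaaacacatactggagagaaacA
Zfp932: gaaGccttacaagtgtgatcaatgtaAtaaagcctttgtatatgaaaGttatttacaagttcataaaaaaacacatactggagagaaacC

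All annotated transcripts, untranslated parts included, were cut into windows of 100 bases, and each window was looked up in the transcripts of all other genes. Entpd4 and Entpd4b had no window of their own among 8304 each. Tmem254b and Tmem254c had none either, while 26.4% of the Tmem254a windows were found in no other gene. Duxbl2 had none, Duxbl1 had 13.1% and Duxbl3 had 6.47%. Of the Gm16867 windows, 24.3% occurred on the opposite strand of Entpd4 and Entpd4b, 86.4% occurred in Gm27177 on the same strand, and 3.69% were found in no other gene. Gm15446 was far more distinct, with 83.8% of its windows found in the transcripts of no other gene and 16.2% shared with Zfp932. With windows of 50 bases, 67.3% were found in no other gene. The rest of the genome was not searched. For the read length, the strand setting and the handling of reads with several matches, nothing is given in the sources used here.

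**Figure D1:**
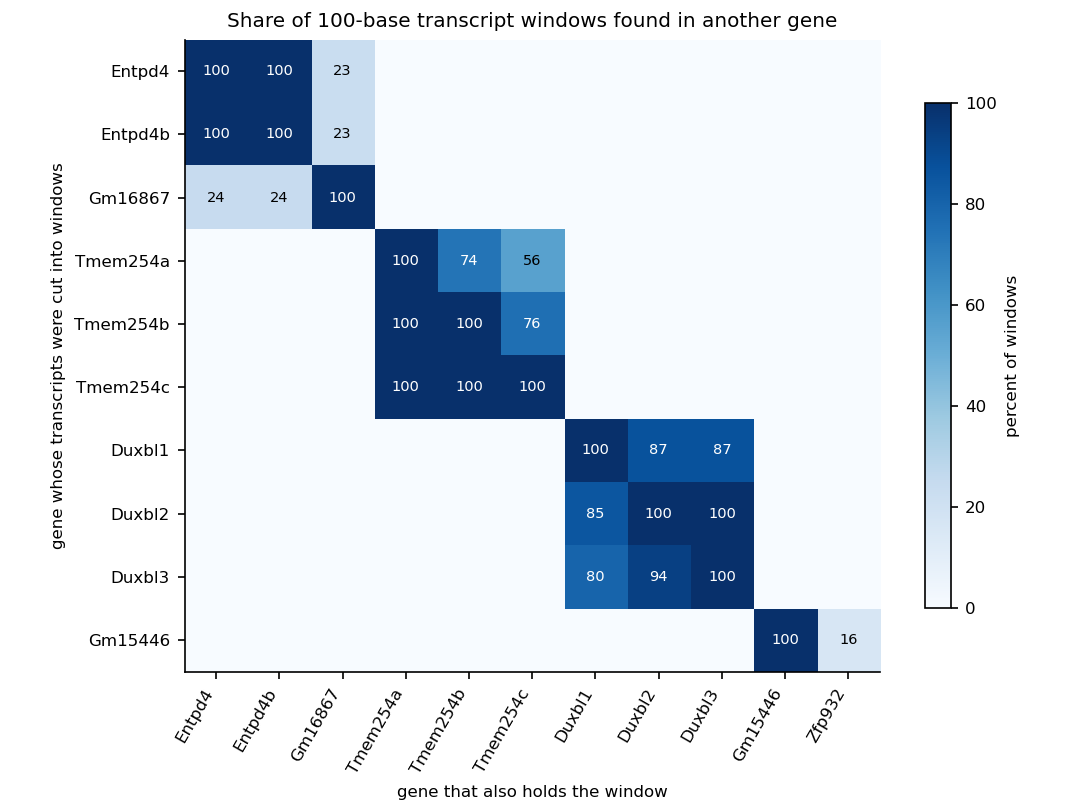
Percent of the 100-base transcript windows of each of the 10 genes (rows) that also occur in another of them or in Zfp932 (columns), with either strand counted and the diagonal at 100. The Entpd4 pair shares 100% of its windows, pairs of Duxbl genes share 79.9% or more and pairs of Tmem254 genes 55.7% or more, whereas Gm15446 shares 16.2% of its windows with Zfp932.

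Expression was deposited as FPKM, fragments scaled by gene length and by mapped fragments, and fold changes below are differences of log2(FPKM + 0.5), which understate the change of low genes. All 10 genes passed the filter of at least 0.5 FPKM in at least 3 of the 9 libraries, Tmem254a only through its OIR WT values. Markers of photoreceptors, interneurons, ganglion cells and Müller glia were present in every group. Their summed FPKM ran from 8423 to 11933 in OIR KO, from 8102 to 10067 in OIR WT and from 11040 to 11515 in RA WT, with none of the 16 at 0 in all libraries. Il19 itself was listed at 0 in all 6 OIR libraries and in RA WT 2 and 3, and at 0.0406 FPKM in RA WT 1, so its level does not check the genotype. The 4 Y-linked genes measured were listed at 0 in OIR KO 1 and RA WT 2 and were present in the other 7 libraries. Of those 7, RA WT 3 had the lowest value of each gene. Ddx3y measured 6.80 FPKM there, beside 12.9 to 15.7 FPKM in the rest, and the reason was not tested.

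Entpd4b was lower in every OIR KO library than in any wild-type library. It measured 10.4, 11.5 and 11.2 FPKM in OIR KO, 31.8, 24.5 and 31.8 FPKM in OIR WT, and 22.3, 23.8 and 25.4 FPKM in RA WT. The log2 difference between OIR KO and OIR WT was -1.36 (SE 0.11), and between OIR KO and RA WT -1.07 (SE 0.11). Its twin Entpd4 measured 8.47, 8.85 and 9.03 FPKM in OIR KO, 0, 17.7 and 13.8 FPKM in OIR WT, and 16.3, 14.2 and 19.005 FPKM in RA WT. The 0 in OIR WT 1 stands alone among 9 libraries, in the library where Entpd4b carried all of the signal of the pair. With it, the log2 difference between OIR KO and OIR WT was 0.87 (SE 1.20); without that library it was -0.80.

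The sum of Entpd4 and Entpd4b, whose windows are all alike, was 18.9, 20.4 and 20.2 FPKM in OIR KO. It was 31.8, 42.2 and 45.6 FPKM in OIR WT, and 38.5, 38.0 and 44.4 FPKM in RA WT. The knockout libraries averaged 19.8 ± 0.802 FPKM, against 39.8 ± 7.21 FPKM in OIR WT and 40.3 ± 3.55 FPKM in RA WT (SD, n = 3 each). The knockout mean was thus 49.8% of the OIR WT mean and 49.2% of the RA WT mean, and the knockout libraries overlapped neither group. Within OIR KO, Entpd4 held 43.4 to 44.8% of the summed FPKM of the pair, a narrow range, against 0 to 41.9% in OIR WT and 37.3 to 42.8% in RA WT.

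Gm16867, a predicted gene on the opposite strand, was at or near 0 in the knockout libraries. It was listed at 0, 1.20 and 0.0491 FPKM in OIR KO, against 22.1, 12.7 and 21.2 FPKM in OIR WT and 9.46, 10.5 and 8.96 FPKM in RA WT. The 3 groups did not overlap: the OIR WT libraries were highest and the OIR KO libraries lowest. The log2 difference between OIR KO and OIR WT was -4.59 (SE 0.44), and between OIR KO and RA WT -3.71 (SE 0.44). Since its 3′ part lies across Entpd4 and the counting strand is not given, reads of Gm16867 and of the Entpd4 genes cannot be told apart there. The sum of all 3 entries was 18.9, 21.6 and 20.3 FPKM in OIR KO, 53.8, 54.9 and 66.8 FPKM in OIR WT, and 48.0, 48.5 and 53.3 FPKM in RA WT. This sum adds a gene that is not a copy of the pair. On it, the knockout mean was 34.6% of that of OIR WT and 40.5% of that of RA WT.

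**Figure D2:**
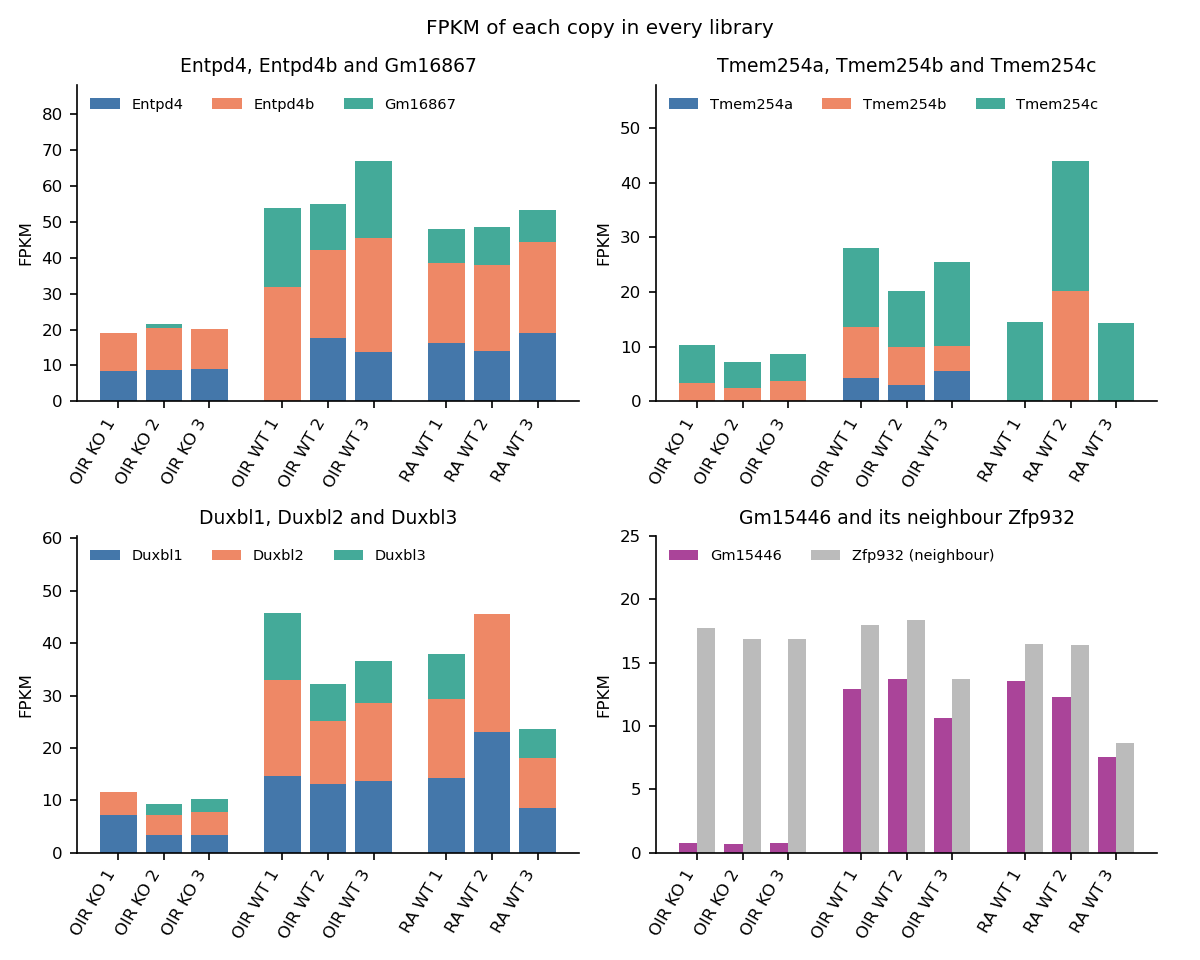
FPKM (vertical axis) in each of the 9 libraries (horizontal axis). The genes of a family are stacked in the first 3 panels, with Gm16867, which is not a copy, added to Entpd4 and Entpd4b. Gm15446 stands beside its neighbour Zfp932 in the last. The stacked height, the family sum, is lower in all 3 OIR KO libraries than in every wild-type library, while Zfp932 stays between 16.9 and 17.7 FPKM in OIR KO.

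The Tmem254 copies were lower in the knockout as a sum, with the split among copies varying between libraries. Tmem254c, the copy with the highest level, measured 6.99, 4.80 and 4.83 FPKM in OIR KO, 14.4, 10.3 and 15.3 FPKM in OIR WT, and 14.5, 23.7 and 14.4 FPKM in RA WT. Tmem254b measured 3.27, 2.39 and 3.79 FPKM in OIR KO, 9.36, 6.93 and 4.54 FPKM in OIR WT, and 0, 20.2 and 0 FPKM in RA WT. Tmem254a was listed at 0 in all OIR KO libraries, at 4.33, 2.95 and 5.64 FPKM in OIR WT, and at 0 in all RA WT libraries. Tmem254a was thus listed in OIR WT alone, and Tmem254b in RA WT in 1 library of 3.

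Summed over the 3 copies, Tmem254 came to 10.3, 7.19 and 8.61 FPKM in OIR KO, 28.1, 20.1 and 25.5 FPKM in OIR WT, and 14.5, 43.9 and 14.4 FPKM in RA WT. The knockout libraries lay below all 6 wild-type libraries. The knockout mean was 35.4% of the OIR WT mean and 35.8% of the RA WT mean. RA WT 2 carried 3.05 times the sum of the lowest RA WT library, and that group's spread was 70.2% of its mean, against 17.7% in OIR KO and 16.5% in OIR WT. Without RA WT 2, the log2 difference between OIR KO and RA WT changed to -0.72, against -1.24 with all libraries.

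The Duxbl genes were also lower in the knockout as a sum, with a more even split. Duxbl1 measured 7.16, 3.37 and 3.36 FPKM in OIR KO, 14.7, 13.2 and 13.8 FPKM in OIR WT, and 14.4, 23.1 and 8.64 FPKM in RA WT. Duxbl2 measured 4.44, 3.82 and 4.45 FPKM in OIR KO, 18.2, 11.9 and 14.7 FPKM in OIR WT, and 14.9, 22.4 and 9.46 FPKM in RA WT. Both were lower in every OIR KO library than in any wild-type library. Duxbl3 was listed at 0, 2.15 and 2.52 FPKM in OIR KO, 12.9, 7.12 and 8.05 FPKM in OIR WT, and 8.63, 0 and 5.44 FPKM in RA WT. Its 2 zeros fell in OIR KO 1 and RA WT 2, the same libraries in which the Y-linked genes were at 0, and in these Duxbl1 took 61.7% and 50.8% of the family sum, against 32.1 to 41.0% in the other 7.

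As a sum, Duxbl measured 11.6, 9.35 and 10.3 FPKM in OIR KO, 45.8, 32.2 and 36.6 FPKM in OIR WT, and 37.9, 45.6 and 23.5 FPKM in RA WT. The knockout mean was 27.3% of the OIR WT mean and 29.2% of the RA WT mean, and the lowest wild-type library, RA WT 3, stood above the highest knockout library. The log2 difference of the sums was -1.81 (SE 0.17) against OIR WT and -1.68 (SE 0.29) against RA WT.

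Gm15446 had the most distinct sequence of the 10 and the largest difference on a summed scale. It measured 0.744, 0.720 and 0.816 FPKM in OIR KO, 12.9, 13.8 and 10.6 FPKM in OIR WT, and 13.6, 12.3 and 7.58 FPKM in RA WT. The knockout mean was 6.12% of that of OIR WT and 6.81% of that of RA WT, with log2 differences of -3.35 (SE 0.19) and -3.17 (SE 0.19). Its neighbour Zfp932, a zinc finger gene of similar coding sequence, did not follow. Zfp932 measured 17.7, 16.9 and 16.9 FPKM in OIR KO, 18.0, 18.4 and 13.7 FPKM in OIR WT, and 16.5, 16.4 and 8.65 FPKM in RA WT. Its log2 difference between OIR KO and OIR WT was 0.05 (SE 0.22, limma adjusted p = 0.976).

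Counted gene by gene, 9 of the 10 were lower in OIR KO than in OIR WT without overlap of libraries, the exception being Entpd4 through its single 0. Among all 15678 genes tested, 7.98% were lower without overlap in that contrast, but the genes were picked on it, so the count only describes them. Against RA WT, which shares the knockout libraries, 7 of the 10 were lower without overlap, where 15.4% of all genes were. The median log2 difference over the 10 was -1.63 between OIR KO and OIR WT and -1.32 between OIR KO and RA WT, beside -0.00 and 0.02 over all genes tested. Copies of a family draw on reads that fit more than 1 of them, so the 10 do not count as 10 separate genes here.

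Retinopathy in wild type was the comparison open to a test. Tmem254a was listed in all 3 OIR WT libraries and at 0 in all 3 RA WT libraries, but since it passed the filter through OIR WT alone, it had to differ and is given without a test. The Tmem254 sum overlapped between the groups. Of the other 9 genes, limma with Benjamini-Hochberg adjustment over all genes called 0, with 1 higher (Entpd4b, 0.29, SE 0.11, adjusted p = 0.115) and 0 lower at an unadjusted p under 0.05, where 16.0% of all genes were called. Of these 9, Gm16867 alone had libraries that did not overlap, with a log2 difference of 0.88 between OIR WT and RA WT (SE 0.44, limma adjusted p = 0.213). Among all genes, 17.8% were higher without overlap in this contrast. The remaining 8 had log2 differences between -1.73 (Entpd4, SE 1.20) and 2.05 (Tmem254b, SE 1.28), and the widest of these rested on libraries listed at 0. Duxbl2 (0.00, SE 0.27), Duxbl1 (-0.04, SE 0.36) and Gm15446 (0.18, SE 0.19) were nearest to 0. Leaving out single libraries changed some calls: limma called Entpd4b without OIR WT 2 (adjusted p = 0.0238) and Tmem254b without RA WT 2 (adjusted p = 0.00102). The latter left RA WT with Tmem254b values of 0 alone. Gm16867 was called without OIR KO 2 (limma adjusted p = 0.015), a library outside this contrast. Its log2 difference stayed at 0.88, and only its SE, estimated over all libraries, fell to 0.20.

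The family sums gave the same comparison with the copies added up, with SEs from these 2 groups alone. The Tmem254 copies are not of like length, with 2656 windows of 100 bases in Tmem254a, 1956 in Tmem254b and 1480 in Tmem254c. Their sum thus still depends in part on the split among copies. Between OIR WT and RA WT, the log2 difference was 0.22 (SE 0.11) for the 3 Entpd4 entries, with an exact two-sided permutation p of 0.1, the smallest that 3 against 3 libraries allow. It was -0.03 (SE 0.17, exact p = 0.9) for Entpd4 and Entpd4b alone, 0.21 (SE 0.54, exact p = 0.8) for Tmem254, 0.13 (SE 0.32, exact p = 0.8) for Duxbl and 0.18 (SE 0.27, exact p = 0.6) for Gm15446. In the same contrast, limma called 8 of the 16 retinal markers lower, where it called 1242 of all 15678 genes lower and 1261 higher. Of 10 tested markers of blood and neighbouring tissue, it called 5 higher, all of blood and immune cells: Lyz2, Cd68, Cd8a, Hbb-bs and Hba-a1. The tissue markers Rpe65, Cryaa, Cryba1, Krt12 and Mlana were not called. The red cell gene Hbb-bs measured 431, 156 and 509 FPKM in OIR WT, against 28.2, 26.1 and 45.3 FPKM in RA WT. The part of these markers in the values above was not tested. In whole retina, fewer cells of a type and less RNA per cell cannot be told apart.

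**Figure D3:**
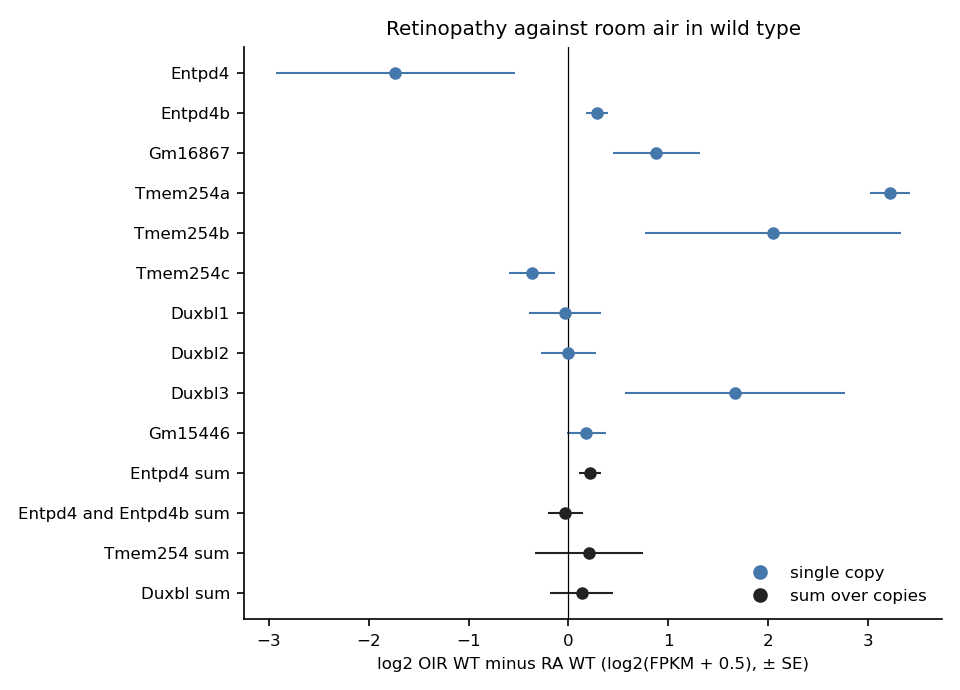
Log2 difference between OIR WT and RA WT (horizontal axis, log2(FPKM + 0.5), bars are ± SE, n = 3 each) for each gene and for the family sums. Bars of single genes are limma SEs from the fit over all 9 libraries. Those of sums come from these 2 groups alone, so the bars of genes and sums are not alike. The sums lie between -0.03 and 0.22, while single copies spread between -1.73 and 3.23; the highest, Tmem254a, was listed at 0 in RA WT, so its value depends on the 0.5 FPKM added.

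Neighbouring genes were compared to see how far the lower values reached along the chromosome. Of 47 other listed genes annotated within 500 kb, 36 passed the filter, and 0 were called between OIR KO and OIR WT by limma, where 0.134% of all genes were, against 2 higher and 5 lower at an unadjusted p under 0.05. Of these 5, 3 lay among the 8 tested neighbours of the Entpd4 genes, whose median log2 difference was -0.35. To the right of the stretch, the nearest tested gene is Loxl2, an enzyme that crosslinks collagen, at 7.45, 14.7 and 5.57 FPKM in OIR KO, 14.99, 12.1 and 18.8 FPKM in OIR WT, and 2.54, 2.64 and 3.05 FPKM in RA WT. OIR KO 2 overlapped OIR WT, and the log2 difference between OIR KO and OIR WT was -0.79 (SE 0.30). To its left, the nearest is Slc25a37, the mitochondrial iron importer of red cell precursors, with a difference of -0.60 (SE 0.39). The other neighbours of this stretch at an unadjusted p under 0.05 were Stc1, a secreted glycoprotein hormone, at -0.48 (SE 0.14), and Egr3, an immediate early transcription factor, at -0.48 (SE 0.19). Between OIR WT and RA WT, Stc1 differed by 0.44 (limma adjusted p = 0.0635) and Egr3 by 1.25 (limma adjusted p = 0.00422). Between Loxl2 and Egr3 lie R3hcc1 at 0.01 (SE 0.098), Chmp7 at -0.06 (SE 0.093), Tnfrsf10b at -0.22 (SE 0.21) and Rhobtb2 at 0.18 (SE 0.12). The lower neighbours were thus not in an unbroken run. Outside the Tmem254 and Duxbl stretch and its Plac9 genes, the nearest tested neighbours were Anxa11, a calcium-dependent membrane-binding protein, which differed by -0.05 (SE 0.19), and Slmap, a membrane-anchored protein, by 0.19 (SE 0.15). These neighbours were named after their values were seen. The median over the 11 tested neighbours of that stretch was -0.05, and over the 17 of Gm15446 it was 0.01.

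Inside the Tmem254 and Duxbl stretch and just beside it, a further repeated gene, Plac9, named for its expression in placenta, was also listed. Plac9a measured 0, 0 and 1.80 FPKM in OIR KO, 2.83, 2.04 and 0.760 FPKM in OIR WT, and 0, 3.96 and 2.94 FPKM in RA WT. Plac9b measured 0.829, 1.48 and 0 FPKM in OIR KO, 3.76, 3.37 and 6.70 FPKM in OIR WT, and 0, 7.41 and 0 FPKM in RA WT. Gm9780 shares 99.4% of its 100-base windows with Plac9a and measured 3.75, 1.74 and 2.85 FPKM in OIR KO, 4.48, 3.82 and 6.13 FPKM in OIR WT, and 4.29, 11.1 and 6.54 FPKM in RA WT. None of the 3 was called between OIR KO and OIR WT by limma, and each had an unadjusted p above 0.05. Their sum, formed after these values were seen, was 4.58, 3.21 and 4.65 FPKM in OIR KO, 11.1, 9.22 and 13.6 FPKM in OIR WT, and 4.29, 22.5 and 9.48 FPKM in RA WT. OIR KO lay below OIR WT without overlap, at 36.7% of its mean, but overlapped RA WT. As for Tmem254 and Duxbl, RA WT 2 was the highest RA WT library.

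**Figure D4:**
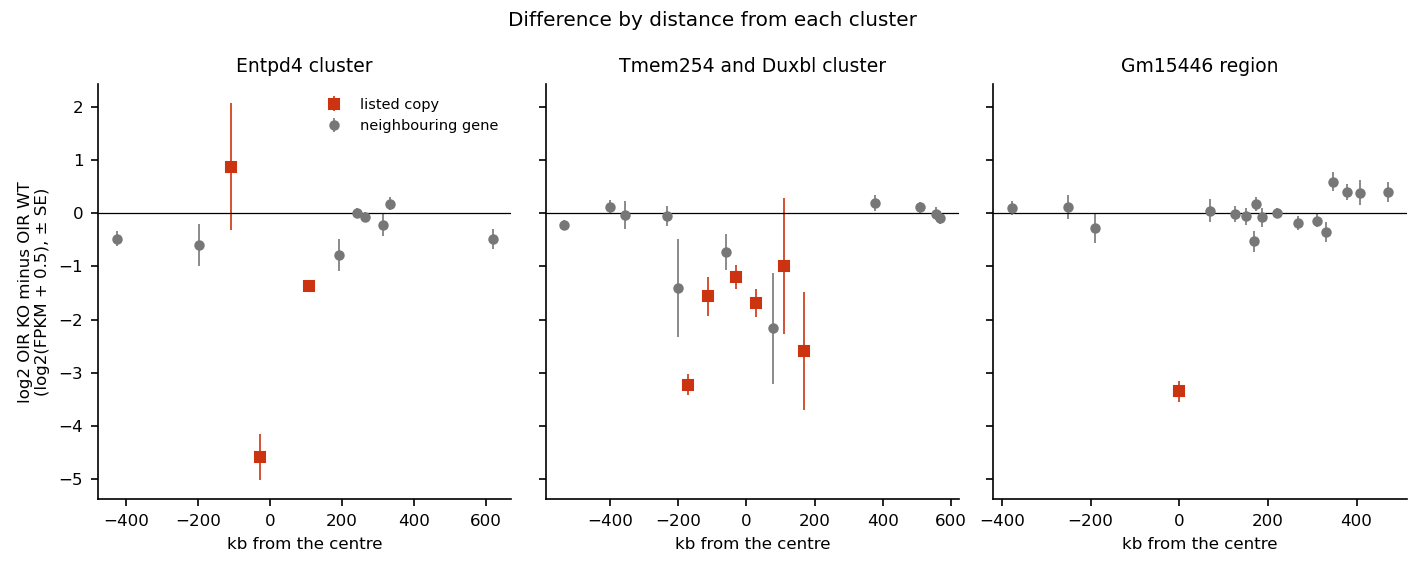
Log2 difference between OIR KO and OIR WT (vertical axis, log2(FPKM + 0.5), bars are ± SE) by distance in kb from the centre of each stretch (horizontal axis), for the 10 listed genes (red squares) and the 36 tested neighbours (grey circles). The lower neighbours among the squares of the middle panel are Plac9a, Gm9780 and Plac9b, and Zfp932, the nearest tested neighbour of Gm15446, lies at 0.05.

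Some neighbours differed between the wild-type groups. With retinopathy in wild type, limma called 5 of the 36 tested neighbours higher and 3 lower at an adjusted p under 0.05, beside 16.0% of all genes. Loxl2 rose by 2.26 on the log2 scale (adjusted p = 0.0032), and Slc25a37 rose by 2.17 (adjusted p = 0.0102). P2rx2, an ATP-gated channel, fell by 1.85 (adjusted p = 0.00238). Slc25a37 was high in the same OIR libraries as haemoglobin RNA, at 32.8, 82.7 and 31.3 FPKM in OIR KO and 83.3, 43.4 and 82.3 FPKM in OIR WT. Hbb-bs measured 44.3, 418 and 37.9 FPKM in OIR KO.

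RefSeq promoter windows (build GRCm38.p6, 250 bases before the start) were on hand for 6 of the 10 genes, and not for Entpd4, Duxbl1, Duxbl2 and Duxbl3. The windows of Tmem254a (chr14:25927673-25927922, minus strand) and Tmem254c (chr14:26067426-26067675, minus strand) differed at 0 of 250 bases, and each shared a 234-base identical stretch with a window of Tmem254b. The listed levels of Tmem254a and Tmem254c are uncertain, since no transcript window belongs to Tmem254c alone, and are not set against their promoters. Each of these genes had a second window among its RefSeq entries (chr14:25927251-25927500 for Tmem254a and chr14:26066993-26067242 for Tmem254c), which held 1 GC box. The window below is the one that is the same in Tmem254a and Tmem254c. It held none of the 3 motifs searched on both strands: GGGCGG (the GC box, in 32.7% of 32851 promoters of this length), CCAAT (in 33.9%) and ACGTG (the core of the hypoxia response element, in 16.6%).
Tmem254a and Tmem254c: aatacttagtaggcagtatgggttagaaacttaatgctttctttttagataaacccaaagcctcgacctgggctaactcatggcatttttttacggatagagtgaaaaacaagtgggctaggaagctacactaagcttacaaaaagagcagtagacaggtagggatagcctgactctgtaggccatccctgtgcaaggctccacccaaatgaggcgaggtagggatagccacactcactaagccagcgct

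The window of Entpd4b (chr14:69555151-69555400, plus strand) held 1 CCAAT and 3 matches to ACGTG, of which 2 are the strands of a single CACGTG. The matches are in capitals. They describe these letters only.
Entpd4b: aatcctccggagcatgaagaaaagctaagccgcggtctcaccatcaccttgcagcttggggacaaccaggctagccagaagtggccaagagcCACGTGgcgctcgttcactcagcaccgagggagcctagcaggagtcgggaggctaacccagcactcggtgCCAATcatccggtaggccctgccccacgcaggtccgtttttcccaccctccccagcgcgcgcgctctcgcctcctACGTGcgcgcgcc

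No gene of the lists of related roles, here and in the next paragraph, was called between OIR KO and OIR WT. Only 0.134% of all genes were, so lists of this size could be at 0 whatever their role. At an unadjusted p under 0.05, 810 of all 15678 tested genes were higher there and 744 lower. Between OIR WT and RA WT, 16.0% of all genes were called. Of 12 tested genes of the ENTPD family and related nucleotidases, limma called 0, with 3 higher and 0 lower at an unadjusted p under 0.05. In OIR WT against RA WT it called 0 higher and 3 lower. Entpd3, an ectonucleotidase of the cell surface, measured 0.923, 0.692 and 1.18 FPKM in OIR WT, against 2.05, 2.66 and 2.69 FPKM in RA WT, and fell by 1.06 (adjusted p = 0.0057). Enpp2, autotaxin, fell by 1.60 (adjusted p = 0.0149), and Enpp5 fell by 0.39 (adjusted p = 0.0165). Of 15 tested genes of Golgi nucleotide sugar transport and UDP-glucose use, limma called 0 between OIR KO and OIR WT, with 1 higher and 1 lower at an unadjusted p under 0.05. Ugdh, which oxidises UDP-glucose, rose by 0.53 between OIR WT and RA WT (adjusted p = 0.00579), the 1 call of this list there.

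Of 19 DUX and cleavage-stage genes in the table, among them the Zscan4 and Tdpoz genes, 15 were listed at 0 in every library and 0 passed the filter. The highest value was 0.520 FPKM, for Sp110 in OIR KO 1. Among 8 tested paired-type homeobox genes of the retina, limma called 0 between OIR KO and OIR WT, with 3 higher and 0 lower at an unadjusted p under 0.05. With retinopathy in wild type, Prrx1 rose by 0.83 (adjusted p = 0.0128), and the retinal regulator Pax6 fell by 0.39 (adjusted p = 0.0186). Of 15 tested regulators that work with KRAB zinc finger proteins, limma called 0 between OIR KO and OIR WT, with 1 higher and 1 lower at an unadjusted p under 0.05. In OIR WT against RA WT, 1 was called, Uhrf1, which reads hemimethylated DNA and rose by 1.02 (adjusted p = 0.0105).

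Some genes elsewhere had a pattern over the 9 libraries like that of the copies, measured as Pearson's r of log2(FPKM + 0.5) among 15668 other genes and given as a description over libraries that share their groups. For the sum of the 3 Entpd4 entries, the closest were Vps39, with an r of 0.985, and Eml3, with an r of -0.983. For Gm15446 they were Crb1, with an r of 0.985, and again Vps39, with an r of 0.971. Vps39, a subunit of the HOPS tethering complex of late endosomes and lysosomes, measured 9.54, 10.2 and 9.17 FPKM in OIR KO, 18.9, 17.1 and 19.3 FPKM in OIR WT, and 17.8, 18.2 and 18.6 FPKM in RA WT. Crb1, an apical polarity protein of photoreceptors and Müller glia, measured 33.2, 28.995 and 31.0 FPKM in OIR KO, 57.9, 66.8 and 58.9 FPKM in OIR WT, and 63.6, 56.3 and 56.5 FPKM in RA WT. The nearest to the Tmem254 sum was Dcaf4, with an r of 0.965, and to the Duxbl sum Zfp770, with an r of 0.962.

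Finally, genes with a near-identical copy were counted across the table, from a sample of their windows and without sharing between overlapping genes. Genes without an annotated transcript or with too few sampled windows were left out. The classes below therefore cover neither all 15678 tested genes nor all 21 called between OIR KO and OIR WT. Of 141 tested genes with at least 50% of their 100-base windows in another gene, 132 were not among the 10 listed genes. Of these 132, limma called 3 between OIR KO and OIR WT, a share of 2.27%: Gm10591, Cldn34c2 and Dynlt1b. Among the 13837 tested genes with less sharing, Gm15446 included, the share was 0.0723%. Between OIR WT and RA WT, the share called was 10.6% among the 132 and 16.6% among the others. These shares were not compared by a test.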

How the data were processed

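The authors deposited 1 table of FPKM values with 1 column per library. Per the submitters' processing notes, HISAT2 and build GRCm38 were used; per the labels' protocols, RNA was extracted with Trizol and libraries were made with an NEBNext Ultra kit. For the counting program, its strand setting and the depth, nothing is given in the sources used here. At most 37.3% of the low values of a library came within 0.02 of a whole multiple of its best-fitting step. Whole reads could thus not be recovered, so count tests and counting intervals were left out.

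The scale used was log2(FPKM + 0.5). Genes with at least 0.5 FPKM in at least 3 libraries (15678) were fitted in limma 3.58.1 (R 4.3.3) with 1 mean per group over all 9 libraries, trend and robust options, two-sided, with Benjamini-Hochberg adjustment over all of them; a gene was called at an adjusted p under 0.05. The fit was checked on simulated data. Family sums of FPKM were compared with exact permutation tests over libraries.

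Positions and transcripts came from GENCODE M21, promoters from RefSeq; 22022 of 22036 Ensembl IDs matched. Protein sequences were not used here, so near-identical genes were found by shared 100-base transcript windows, a choice made after the data were seen. The genes and lists were chosen with earlier results of these data known. The rule named the 10 genes, per family the 5 genes of highest absolute r, and at most 5 called genes per list or neighbourhood; of these the text gives a part, leaving out new models without a symbol. Alternatives were other pseudocounts, no filter, median scaling, a Y-linked covariate, a replicate block and leaving out each library.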

Additional observations from a re-analysis of the deposited data

How the results depend on the processing

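Libraries with the same number in the labels were not more alike than others in their deviations from the group means. Of 9 same-numbered pairs, 1 correlated above 0.1, with r between -0.353 and 0.134. Among 18 other pairs, 6 did, with r between -0.165 and 0.351. With so few libraries per group, these values cannot decide whether the libraries were paired. With a replicate block, 8 genes were called between OIR KO and OIR WT, against 21 without it, and 1692 between OIR WT and RA WT, against 2503. A Y-linked covariate left 1581 calls between OIR WT and RA WT and turned Duxbl1 there to 0.33. Leaving out 1 library gave 7 to 42 calls between OIR KO and OIR WT, the lowest without OIR WT 3 and the highest without OIR KO 2, with 8 without OIR WT 1, 10 without OIR KO 1 and 11 without OIR KO 3. It gave 1039 to 2778 calls between OIR WT and RA WT, with 1039 without OIR WT 1, 1331 without OIR WT 3, 1391 without RA WT 3 and 1437 without RA WT 2.

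The knockout sums kept their sign in every alternative run. With 1 library left out, the log2 difference between OIR KO and OIR WT lay between -1.56 and -1.40 for Entpd4, -1.58 and -1.33 for Tmem254, -1.93 and -1.68 for Duxbl, and -3.46 and -3.28 for Gm15446. Without Gm16867, an alternative added after seeing the data, the Entpd4 sum gave -0.97 against OIR WT and -1.002 against RA WT, and turned to -0.029 between OIR WT and RA WT (exact permutation p = 0.9). Without Entpd4b it gave -1.46 against RA WT. Gm15446 gave -3.86 against OIR WT and -3.67 against RA WT with a pseudocount of 0.1, and -2.92 and -2.75 with 1. Between OIR WT and RA WT, leaving out 1 library gave -0.054 to 0.73 for the Tmem254 sum, -0.14 to 0.33 for Duxbl, -0.064 to 0.34 for Gm15446 and 0.12 to 0.28 for Entpd4, so the sign of the first 3 turned. The cause was not tested.

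Of single copies between OIR WT and RA WT, Duxbl2 turned to -0.0011 with a pseudocount of 1, to -0.0098 with median scaling, to -0.15 without OIR WT 1 and to -0.30 without RA WT 3. Duxbl1 ran from -0.38 without RA WT 3 to 0.30 without RA WT 2. Entpd4 between OIR KO and OIR WT ran from -0.80 without OIR WT 1 to 1.79 without OIR WT 2. Calls under limma appeared for Entpd4b without OIR WT 2 (0.41, adjusted p = 0.0238), Gm16867 without OIR KO 2 (adjusted p = 0.015) and Tmem254b without RA WT 2 (3.84, adjusted p = 0.00102). Median scaling shifted libraries by -0.0234 to 0.0195. The unknown depth and zeros of single copies limit gene-level statements.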
